A study of Mus musculus with 16 samples.

Results

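Zinc transporter genes were examined in the open chromatin of mouse prostate organoids, cultures that keep prostate epithelium growing in a gel matrix, across 16 ATAC-seq libraries. In ATAC-seq a transposase cuts open DNA and tags the cut ends for sequencing, and stretches rich in cuts are called as peaks. The organoids were either Control, described in the labels as normal, or SPOPmut, mutant for SPOP, the substrate adaptor of a cullin ubiquitin ligase in which mutations recur in prostate cancer. Each genotype was kept for 24 h in organoid medium lacking mEGF with either 10 nM dihydrotestosterone (DHT), the active androgen of the prostate, or the solvent ethanol (EtOH). This gave 4 groups of 4 libraries: Control EtOH, Control DHT, SPOPmut EtOH and SPOPmut DHT. All 16 libraries, controls included, carry the label sgNT. The labels used here name no SPOP allele, driver, organoid line or animal, and do not say whether the replicates were separate cultures, so spread between them may be technical. The 10 genes were 7 of the ZIP family (Slc39a1, Slc39a2, Slc39a6, Slc39a8, Slc39a10, Slc39a11 and Slc39a14) and 3 of the ZnT family (Slc30a1, Slc30a4 and Slc30a10), out of 21896 protein-coding genes. They were selected on measured values of these libraries, since the fall at Slc39a11 in SPOPmut was already known. Their counts and differences are therefore given as a description, with no test. Overlapping peaks (1 bp or more) of the 16 lists were joined into 86616 regions, and each region was scored as called, or not, in every library. A region belonged to a gene when the gene's body was the nearest protein-coding one within 100 kb. The 10 genes held 88 of the regions, and 82 of these were called in at least 2 libraries and were used below.

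Zinc crosses membranes through opposed transporter families. ZIP proteins (Slc39 genes) carry zinc into the cytosol from outside the cell or from organelles. ZnT proteins (Slc30 genes) carry it out of the cytosol, either across the plasma membrane or into vesicles. The prostate is known for accumulating zinc and for secreting citrate into prostatic fluid, and zinc is known to be low in prostate cancer. Cells sense free zinc through the transcription factor Mtf1, which binds metal response elements at metallothionein genes and at Slc30a1.

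The sequences just upstream of the start sites of Slc39a11, which lost the most regions, and of the zinc exporters Slc30a4 and Slc30a1 are shown because the calls at these starts behaved differently. The start of Slc30a4 was called in some groups only, whereas peaks covered both starts of Slc39a11 and the start of Slc30a1 in all 16 libraries. Each is the 250 bases before a RefSeq start on GRCm38.p6, 5′ to 3′ on the gene's strand. Capitals mark matches, on either strand, to the core of the metal response element, TGCACNC or TGCGCNC.
Slc39a11 start 1 (chr11:113650093-113650342, minus strand): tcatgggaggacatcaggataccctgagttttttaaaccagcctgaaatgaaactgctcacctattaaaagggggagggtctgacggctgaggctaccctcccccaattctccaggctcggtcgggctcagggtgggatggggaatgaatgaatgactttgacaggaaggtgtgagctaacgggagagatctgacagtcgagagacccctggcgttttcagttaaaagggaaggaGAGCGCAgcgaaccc
Slc39a11 start 2 (chr11:113565816-113566065, minus strand): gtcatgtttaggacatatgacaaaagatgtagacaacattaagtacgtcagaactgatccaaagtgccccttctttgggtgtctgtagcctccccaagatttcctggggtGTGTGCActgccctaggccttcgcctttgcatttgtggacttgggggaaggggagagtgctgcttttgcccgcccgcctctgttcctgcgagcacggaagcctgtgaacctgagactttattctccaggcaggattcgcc
Slc30a4 (chr2:122702664-122702913, minus strand): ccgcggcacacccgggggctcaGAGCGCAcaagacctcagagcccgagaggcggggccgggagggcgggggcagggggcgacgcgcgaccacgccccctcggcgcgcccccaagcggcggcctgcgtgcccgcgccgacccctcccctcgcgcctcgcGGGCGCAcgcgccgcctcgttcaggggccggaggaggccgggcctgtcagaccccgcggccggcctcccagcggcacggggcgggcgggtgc
Slc30a1 (chr1:191906531-191906780, plus strand): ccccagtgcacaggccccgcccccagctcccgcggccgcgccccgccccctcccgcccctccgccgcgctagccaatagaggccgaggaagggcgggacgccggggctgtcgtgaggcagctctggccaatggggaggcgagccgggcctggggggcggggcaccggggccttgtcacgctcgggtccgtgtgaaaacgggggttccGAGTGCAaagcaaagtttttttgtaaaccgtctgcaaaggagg
All 5 marked matches in these stretches lie on the strand opposite to the gene, so they read as reverse complements above. RefSeq promoter windows of 300 bases, from 250 before to 50 after a start, were available for 8 of the 10 members, at 11 starts. Only the 250 bases before each start were searched for matches, for the members and for all genes. A core of either form was found in this part of 6 of the 11 windows, against 21.4% of 32851 windows over all genes. TGCACNC alone was in 3 of 11 (10.4% of all windows) and TGCGCNC in 3 of 11 (12.5%). AGAACA, 1 arm of the androgen response element, was in 0 of 11 windows (16.1% of all), and the full element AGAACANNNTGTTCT was in 0 of 11 (0.00913% of all). A match describes letters in a window and is not evidence of binding.

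The 16 lists held between 57245 and 69644 peaks, on average 62302 and 61014 in Control and 63398 and 64192 in SPOPmut (EtOH, DHT). They contain no read counts and depth is therefore unknown, and a region without a call is one in which no peak was listed, not one shown to be closed. Epithelial markers (8 genes, among them Krt5, Krt8, Krt18, Trp63 and Epcam) were all represented, with 57 to 63 called regions in Control EtOH, 63 to 68 in Control DHT, 62 to 67 in SPOPmut EtOH and 65 to 67 in SPOPmut DHT. Regions at 4 endothelial markers (Pecam1, Cdh5, Tek, Kdr) numbered 18 to 20 and 16 to 19 in Control and 12 and 9 to 13 in SPOPmut, in the same order of treatments. Those at 4 stromal markers ran from 8 to 10 and 7 to 8 in Control and from 6 to 7 and 5 to 7 in SPOPmut. Those at 4 immune markers ran from 7 to 8, 4 to 6, 7 to 8 and 9 to 11 over the 4 groups, with no region at Lyz2. The endothelial values of every SPOPmut library lay below those of every Control library, as the counts at Slc39a11 below did, and the part of these marker shifts in the member counts was not tested. In such bulk samples, fewer cells with an open site and less opening per cell cannot be told apart. The share of all called regions lying on a chromosome also differed between genotypes: in SPOPmut it was 19.9% higher for chromosome 2, which carries Slc30a4, 4.31% higher for chromosome 1 (Slc39a10, Slc30a1, Slc30a10) and 4.92% higher for chromosome 3 (Slc39a1, Slc39a8). It was lower, with a relative difference of -4.92% for chromosome 11 (Slc39a11) and -15.5% for chromosome 14 (Slc39a2, Slc39a14). When each gene's count was taken relative to the call rate of its chromosome in each library, the genotype difference at Slc39a11 was -9.71 regions in EtOH and -11.5 in DHT (-10.5 and -11.75 without this step), and that at Slc30a4 was -0.16 in EtOH and 1.33 in DHT (1.25 and 3 without it).

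Among the members, SPOPmut organoids had fewer called regions at Slc39a11 and more at 3 (EtOH) or 4 (DHT) other transporters. Summed over the 10 genes, the number of called regions was 63.0 ± 5.16 in Control EtOH, 56.5 ± 3.87 in Control DHT, 60.25 ± 2.87 in SPOPmut EtOH and 54.0 ± 2.16 in SPOPmut DHT (SD, n = 4), so the sum differed less between genotypes than Slc39a11 alone. Of the 10 genes, 7 had at least 2 regions and entered the counts of genes below. In EtOH, 3 of the 7 had more regions in every SPOPmut library than in any Control library (Slc39a10, Slc39a6 and Slc30a1; 13.1% of all 11210 genes with at least 2 regions did so) and 1 had fewer (Slc39a11; 8.72%). In DHT, 4 had more (Slc39a6, Slc39a8, Slc30a1 and Slc30a4, 16% of all genes) and again Slc39a11 had fewer (8.53%). The 2 regions counted at Slc39a8 passed the limit of 2 libraries through SPOPmut libraries alone. At equal list length its groups overlapped in DHT, with means of 0.75 in SPOPmut and 0 in Control. With DHT in Control, 0 of the 7 were higher without overlap (5.17% of all genes) and 1, Slc30a4, was lower (4.44%). With DHT in SPOPmut, Slc39a14 was higher (9.14%) and Slc39a10 lower (4.53%). Because the genes were picked on the genotype contrast, nothing is read from how these counts compare with all genes. The median difference over the 7 was 1 region by genotype in EtOH, 1.25 by genotype in DHT, -0.5 by DHT in Control and 0 by DHT in SPOPmut, and the median over all genes was 0 in each.

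**Figure D1:**
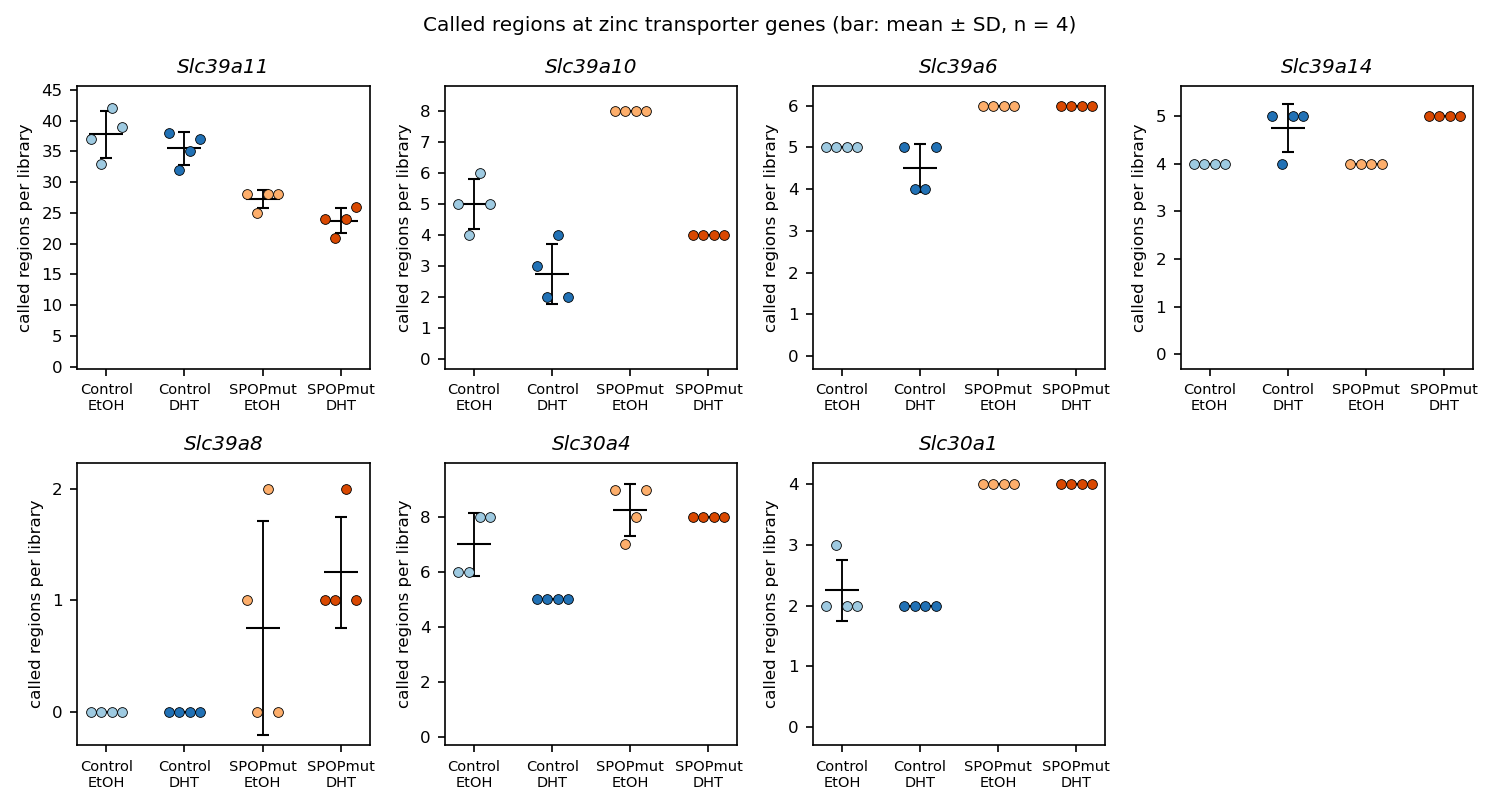
Number of called regions (vertical axis) in each library, by group (horizontal axis), for the 7 zinc transporter genes with at least 2 regions. Points are libraries and bars the mean ± SD (n = 4); Slc39a11 lies at 33 to 42 and 32 to 38 in Control and at 25 to 28 and 21 to 26 in SPOPmut.

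Slc39a11 encodes ZIP11, a ZIP protein reported at the Golgi and nucleus. The gene (69806, chr11:113244851-113650200, minus strand) spans 405 kb and held 44 regions called in at least 2 libraries, against a median of 4 regions over the genes tested. Only 23 genes, itself included, held that many. The libraries of Control EtOH had 37, 33, 42 and 39 called regions, and those of Control DHT had 38, 32, 35 and 37. The libraries of SPOPmut EtOH had 28, 25, 28 and 28, and those of SPOPmut DHT had 24, 21, 24 and 26. Every SPOPmut library lay below every Control library, in both treatments. The mean was 37.75 ± 3.77 in Control and 27.25 ± 1.50 in SPOPmut in EtOH (SD, n = 4), a difference of -10.5 regions. In DHT it was 35.5 ± 2.65 and 23.75 ± 2.06 (SD, n = 4), a difference of -11.75. The differences with DHT were smaller, -2.25 regions in Control and -3.5 in SPOPmut, and the groups overlapped in both genotypes. The peaks of each library at the gene covered 32191 ± 3816 bp in Control EtOH and 30011 ± 1686 bp with DHT, and 22989 ± 1503 bp and 20960 ± 1314 bp in SPOPmut. The covered length thus moved with the number of regions. When only peaks above the median -log10 p of their own list were counted, the differences were -3.25 in EtOH and -2.5 in DHT and the groups overlapped.

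Of the 44 regions of Slc39a11, 27 lay inside the gene body and 17 beyond its 3′ end, on the side of Sox9. Called in all 16 libraries were 18 regions, 12 in the body and 6 beyond it. A region is described as lost when 4 of 4 Control and 0 of 4 SPOPmut libraries called it, and as gained in the opposite case. In EtOH, 9 regions were lost (4.36% of all 80352 regions were) and 0 were gained (4.84%). In DHT, 10 regions were lost (4.22% of all regions) and 1 was gained (6.41%). Lost in both treatments were 7 (2.02% of all regions). Taking the 4 comparisons together, 14 of the 44 regions separated some pair of groups completely (20.6% of all regions did). Of these, 13 did so by loss, either by genotype or with DHT (4 of 4 EtOH and 0 of 4 DHT libraries of a genotype). The 6 widest of the 13 follow. The widest, chr11:113191497-113193078, lay 52.6 kb beyond the 3′ end and had -log10 p values of 6.30, 5.67, 6.64 and 6.03 in Control EtOH and 5.12, 5.30, 5.45 and 5.45 in Control DHT. It had no call in any of the 8 SPOPmut libraries. The -log10 p is the peak caller's own measure of enrichment at the peak and depends on the depth of its library, so it ranks peaks within a list. The next widest, chr11:113182186-113183336, was called in all libraries of the 3 other groups, at 4.63 to 5.76 in Control and 4.23 to 4.60 in SPOPmut EtOH, and in 0 of 4 of SPOPmut DHT. That region was thus missing only from the mutant libraries with androgen. The region chr11:113618675-113619713, inside the body and touching the lower-coordinate end of Sstr2, a somatostatin receptor gene that lies within Slc39a11, was called in 4 of 4 Control libraries with EtOH, 1 of 4 with DHT and 0 of 8 SPOPmut libraries. The region chr11:113235354-113236328 followed treatment, with calls in 4 of 4 and 1 of 4 Control and in 4 of 4 and 0 of 4 SPOPmut libraries, EtOH before DHT. The region chr11:113283227-113284105 was called in 3 and 4 Control and 0 and 0 SPOPmut libraries, with low -log10 p values of 3.03 to 3.68. The last of the 6, chr11:113225584-113226418, 18.9 kb beyond the 3′ end, was called in all 8 Control libraries, at 4.86 to 5.64 with EtOH and 3.65 to 4.22 with DHT, and in 0 of 8 SPOPmut libraries.

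**Figure D2:**
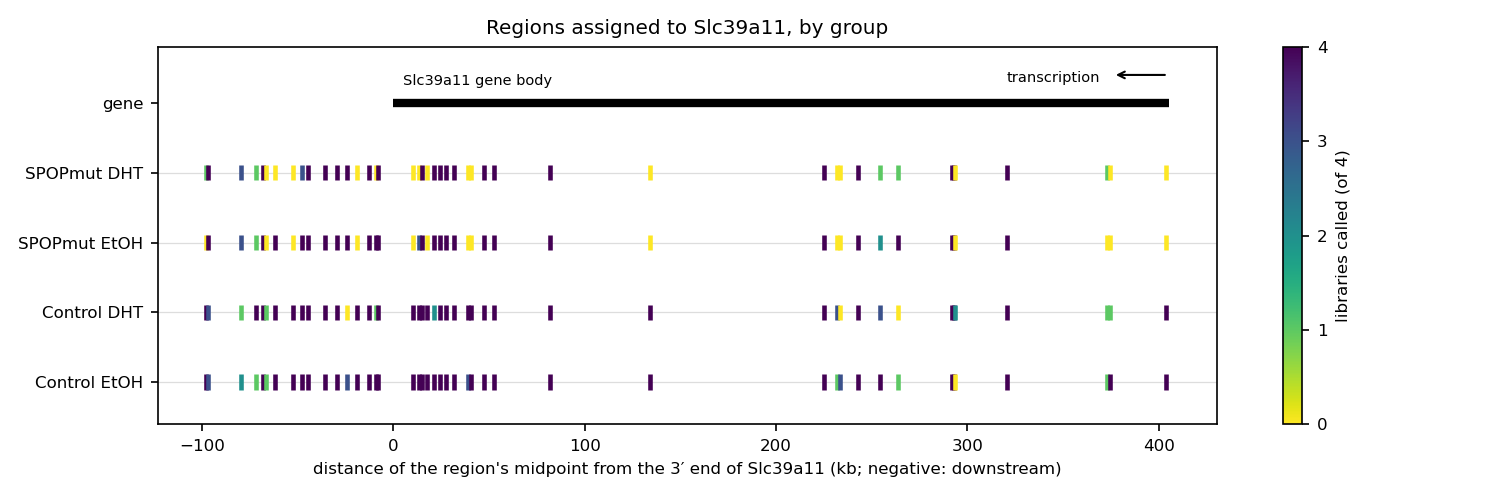
Position of each region of Slc39a11, as the distance of its midpoint in kb from the 3′ end of the gene (horizontal axis; negative values lie downstream), in the 4 groups, with colour for the number of libraries, of 4, that called it. Dark marks throughout a column are among the 18 regions called in all 16 libraries, and the 7 regions lost in both treatments are dark in the Control rows and yellow in both SPOPmut rows; marks of close neighbours overlap.

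One region of Slc39a11 met the rule for gain, in DHT. The region chr11:113220476-113221057, 24.1 kb beyond the 3′ end, was called in 3 of 4 Control libraries with EtOH, at -log10 p values of 3.55, 3.78 and 3.58, and in 0 of 4 with DHT. All 8 SPOPmut libraries called it, at 6.10, 5.49, 5.87 and 5.36 with EtOH and at 5.29 to 5.83 with DHT. It lies between the lost regions at 18.9 and 52.6 kb. Other regions had more calls in SPOPmut without meeting the rule. Among them, chr11:113508203-113509116 was called in 1, 0, 4 and 1 libraries of Control EtOH, Control DHT, SPOPmut EtOH and SPOPmut DHT. In the same order, chr11:113147763-113148254 was called in 3, 3, 4 and 4, and chr11:113165008-113165767 in 2, 1, 3 and 3. Near the opposite end of the gene, the region chr11:113648037-113648661, singled out after its values were seen because its midpoint lies 1.74 kb inside start 1, was called in all 8 Control libraries, at 3.76 to 4.58, and in 0 of 8 SPOPmut libraries. Start 1 itself is covered by chr11:113649274-113650156, which was assigned to the overlapping gene Cog1 and was called in all 16 libraries. Start 2, shown above, is covered by chr11:113565309-113566105, also called in all 16, with -log10 p values of 5.04 to 5.37 (Control) and 4.69 to 5.75 (SPOPmut). So both annotated starts kept their peaks in the libraries with fewer regions.

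The lost regions were narrower, and ranked lower within the lists that called them, than those called everywhere. The 18 regions called in all 16 libraries had a median width of 1125.5 bp and a median percentile of 74.1 within their lists when peaks were ranked by -log10 p. The 7 lost in both treatments had a median width of 695 bp and a median percentile of 37.2 in the libraries that called them, and the other 19 had 582 bp and 16.9. The classes differ in the number of calls by construction.

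In windows of 100 kb counted from the 3′ end, Control held more regions on average in each window from 100 kb beyond the 3′ end to 500 kb on its other side, in both treatments. The first 100 kb of the body held 12 to 13 called regions in each Control library, 8 to 9 in SPOPmut EtOH and 8 in each library of SPOPmut DHT. The 100 kb beyond the 3′ end held, on average, 14.5 (EtOH) and 13.5 (DHT) in Control against 12 and 10 in SPOPmut. The window from 200 to 300 kb, in mid body, held 6.25 and 6 against 5.5 and 4.5. The window from 400 to 500 kb, which contains start 1 but lies mostly beyond the body, held 10 and 8.5 against 7 and 7.5, with 4 regions lost and 1 gained in EtOH and 2 lost and 1 gained in DHT. Each window from 100 to 500 kb beyond the 3′ end went the other way on average, in both treatments. At 100 to 200 kb beyond it, Control held 10.75 and 10.5 and SPOPmut 13 and 12.25. At 200 to 300 kb the means were 4.25 and 4.75 against 4.5 and 5.25, and at 300 to 400 kb 3 and 2.75 against 4 and 6.5. At 400 to 500 kb they were 4.75 and 4 against 5.5 and 4.75. At Sox9, the next gene on that side and a factor of prostate epithelial development, the mean number of regions was 6.75 and 6 in Control and 8.25 and 9 in SPOPmut. On the other side it was 1 and 1 against 1 and 2 at Cog1, 1 in all 4 groups at Fam104a, 5 and 4.5 against 5.75 and 5.25 at Cdc42ep4, and 12 and 10.75 against 10.5 and 9 at Sdk2. The limit of 100 kb falls between a region 97.9 kb beyond the 3′ end, called in 4, 4, 0 and 1 libraries of Control EtOH, Control DHT, SPOPmut EtOH and SPOPmut DHT, and one at 109 kb called in all 16. Counted within 25 kb of the body alone, the genotype differences were -8.75 in EtOH and -8.5 in DHT.

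**Figure D3:**
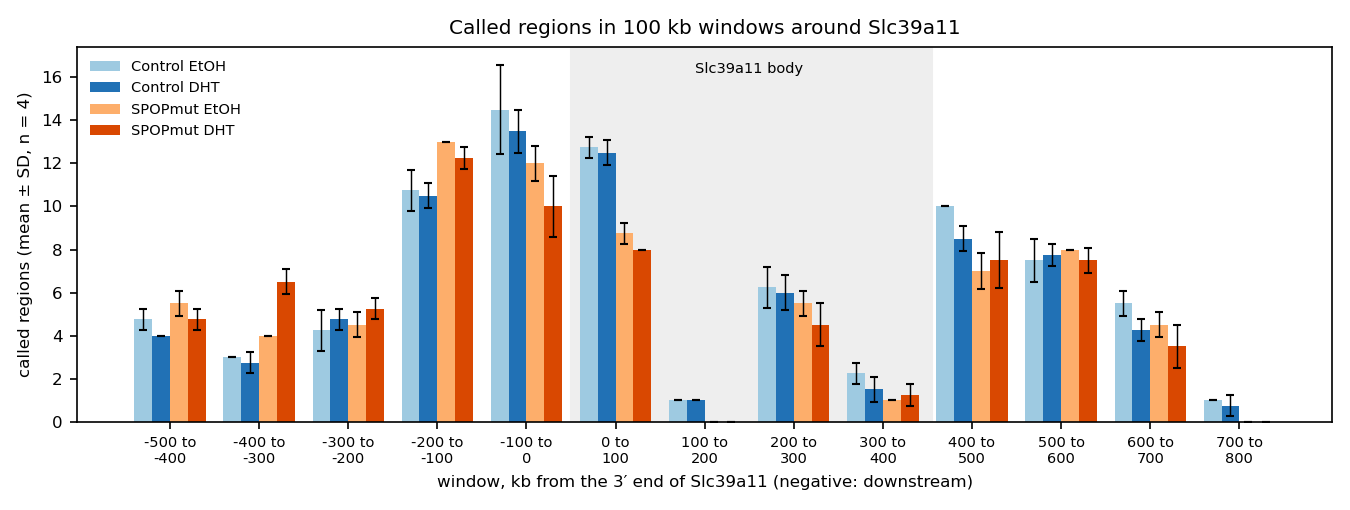
Called regions (vertical axis, mean ± SD over 4 libraries) in 100 kb windows around Slc39a11, by distance from its 3′ end in kb (horizontal axis; negative values lie downstream); grey marks the gene body. Blue bars (Control) stand above orange bars (SPOPmut) in every window from -100 to 500 kb, with 12.75 and 12.5 against 8.75 and 8 in the first 100 kb of the body. Within each treatment they stand below the orange bars in each window from -500 to -100 kb.

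The genes whose counts lay closest to those of Slc39a11 over the 16 libraries, by the mean absolute difference among 5008 genes with at least 5 regions, were Zmiz1 (2.625 regions), Zbtb7c (2.75), Itpr1 (3.31), Stard13 (3.56) and Tiam1 (4). Zmiz1, on chromosome 14, had 35.0 ± 0.816 and 36.5 ± 0.577 regions in Control and 26.5 ± 1.29 and 27.25 ± 2.36 in SPOPmut (SD, n = 4). The measure depends on the level as well as on the change, so genes with far fewer regions cannot come near.

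The other ZIP genes with at least 2 regions had more calls in SPOPmut in at least 1 treatment, or differed with DHT. Slc39a10 (chr1:46807544-46925776, minus strand) encodes ZIP10, a plasma membrane zinc importer. Its libraries had 5, 4, 6 and 5 called regions in Control EtOH, 3, 2, 4 and 2 in Control DHT, 8 in each of SPOPmut EtOH and 4 in each of SPOPmut DHT. The highest counts were thus in SPOPmut without androgen, with no overlap with Control in EtOH, while Control and SPOPmut overlapped in DHT. Among peaks above the median -log10 p of their list, the genotype difference in EtOH turned from 3 to -0.5 (means of 3.75 and 3.25) and the groups overlapped. Treatment set apart a cluster of 3 regions 37.7 to 40.1 kb upstream of start 1. Of these, chr1:46963151-46963712 was called in all 8 EtOH libraries, at -log10 p values of 5.24, 4.35, 5.34 and 5.08 (Control) and 4.58, 4.75, 4.72 and 5.23 (SPOPmut), and in 0 of 8 DHT libraries. Its neighbour chr1:46963961-46964494 was called in all 8 EtOH libraries, at 5.05 to 5.82, and in 1 of 8 DHT libraries, a Control library at 3.49. The third, chr1:46965613-46966057, was called only in SPOPmut EtOH, in 4 of 4 libraries at 3.42 to 3.87. Inside the gene, chr1:46901965-46902597 had the same pattern at 3.42 to 3.88, and chr1:46887857-46888833 was called in all 8 SPOPmut libraries, at 3.70 to 4.41, and in 0 of 8 Control libraries. The start 2 region, chr1:46852272-46854910, was called in all 16 at 6.48 to 7.76, and no region covered start 1. So Slc39a10 lost 1 region completely with DHT in Control (1.96% of all regions) and 4 in SPOPmut (1.98% of all), and gained 0 in either.

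Slc39a14 (chr14:70303467-70351452) encodes ZIP14, which carries iron and manganese as well as zinc. It had 4 called regions in every EtOH library, 5, 4, 5 and 5 in Control DHT and 5 in each library of SPOPmut DHT. The region chr14:70331218-70332079, inside the gene, was called in all 8 DHT libraries and in 0 of 8 EtOH libraries. Its -log10 p values were 7.46, 7.17, 7.91 and 7.59 in Control and 6.83, 6.23, 7.03 and 7.18 in SPOPmut, a median percentile of 91.9 and 81.9 within the respective lists. It was thus among the stronger peaks of the lists that called it. It was 1 of 2 member regions gained with DHT in SPOPmut (4.70% of all regions) and the 1 gained in Control (2.93%). The region chr14:70340972-70341756 was missing from replicate 2 of Control DHT, which is why the counts overlapped with EtOH in Control. It had -log10 p values of 3.60 to 4.21 where called in Control and 4.79 to 5.63 in SPOPmut. The other 3 of its 5 regions were called in all 16 libraries.

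Slc39a6 (chr18:24579881-24603817) encodes ZIP6, a close relative of ZIP10 first known as an oestrogen-regulated gene. It had 5 called regions in each library of Control EtOH, 5, 4, 4 and 5 in Control DHT, and 6 in each of the 8 SPOPmut libraries. A single region, chr18:24594067-24594651, made the difference in EtOH. It had no call in Control and -log10 p values of 5.05, 4.78, 5.59 and 4.45 in SPOPmut EtOH and 4.97, 4.53, 5.12 and 5.01 with DHT. The region chr18:24590048-24590573 was called in 4 and 2 Control libraries at 3.45 to 4.25 and in all SPOPmut libraries at 4.64 to 5.62. The remaining 4 regions were called in all 16, and of these chr18:24602355-24604391 also lies over the neighbouring gene Elp2. The share of called regions lying on chromosome 18 was lower in SPOPmut, with a relative difference of -1.92%. Relative to the call rate of the chromosome, the genotype difference at Slc39a6 was 0.992 regions in EtOH and 1.38 in DHT, again with no overlap. Among peaks above the median -log10 p of their list it was 1.25 and 1, and the groups overlapped.

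Slc39a8 (chr3:135816882-135888572, plus strand) encodes ZIP8, a manganese, zinc and iron importer. Among regions called in at least 2 libraries it had 0 in all 8 Control libraries, 1, 0, 2 and 0 in SPOPmut EtOH and 1, 1, 2 and 1 in SPOPmut DHT. The region chr3:135851662-135852291, inside the gene, accounts for most of these calls, with 1 of 4 SPOPmut libraries in EtOH at 3.17 and 4 of 4 in DHT at 3.76, 3.81, 4.00 and 3.74. These are low values in the lists, and among peaks above the median of their list the genotype difference was 0 in both treatments. Of the 4 regions of the gene, 2 were called in 1 library only and were left out. One of these, chr3:135825484-135825886, covers start 2 of Slc39a8 and was called in a Control EtOH library (replicate 3) at 3.23. The 2 regions that were kept passed the limit of 2 libraries through SPOPmut libraries alone. Slc39a1 (chr3:90248190-90253613), which encodes the ubiquitous importer ZIP1, and Slc39a2 (chr14:51893082-51896745), which encodes ZIP2, had 1 region each, at the start, called in all 16 libraries. The -log10 p at Slc39a2 was 4.41 to 5.33 in Control and 4.12 to 4.45 in SPOPmut, and that at Slc39a1 was 5.90 to 6.44 and 6.37 to 7.02. With 1 region called everywhere, neither gene could differ in this count. When every region overlapping the body and 10 kb either side was counted, Slc39a1 had 4 in Control and 3 in SPOPmut on average. This held in both treatments, without overlap. Counted the same way, Slc39a2 had 2.5 in both genotypes in EtOH, and 3.5 in Control and 3.25 in SPOPmut in DHT, with overlap.

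**Figure D4:**
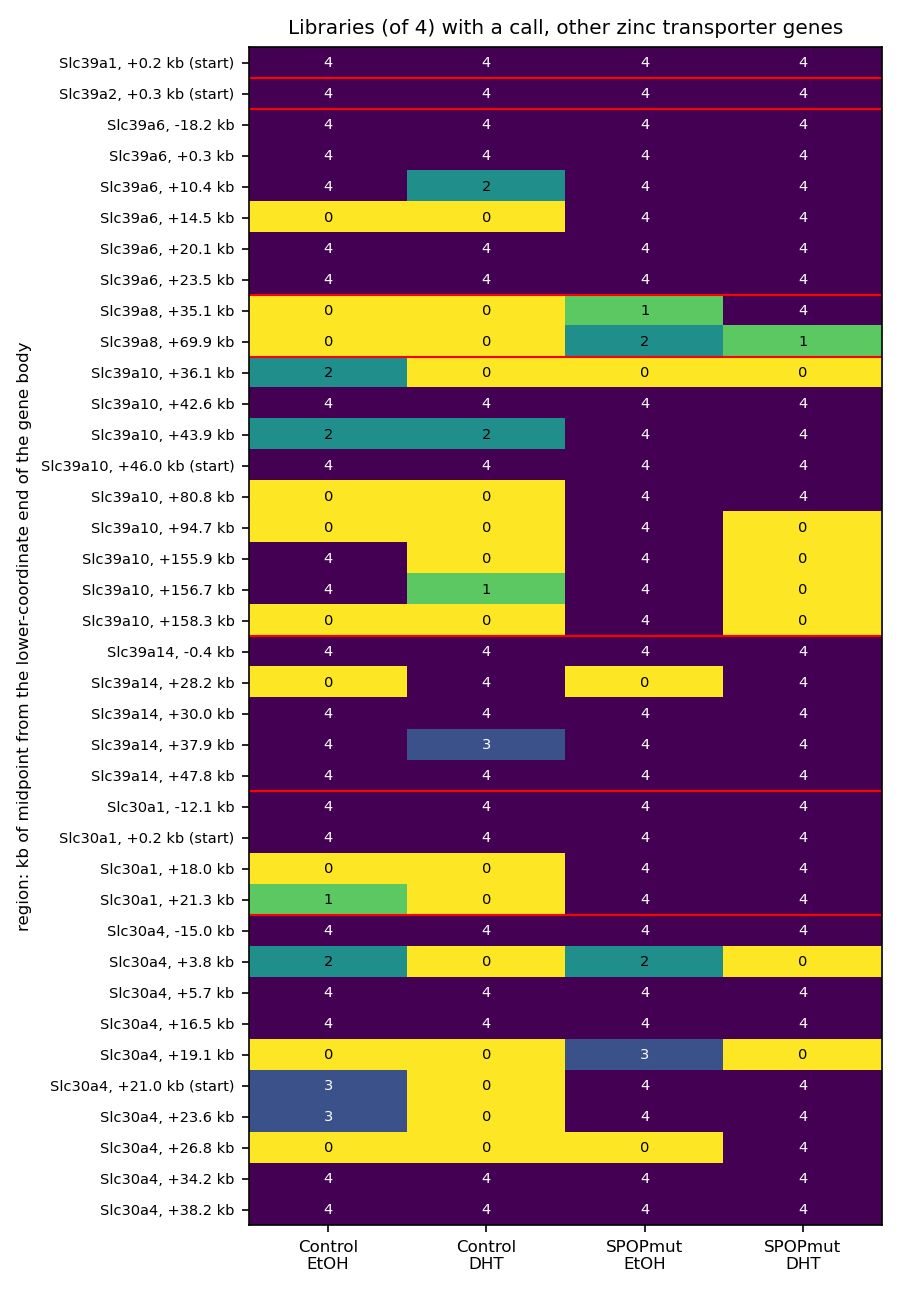
Number of libraries, of 4, with a call (cell values and colour) in each group (columns) for the 38 regions of the zinc transporter genes other than Slc39a11 (rows, named by the distance of the midpoint in kb from the lower-coordinate end of the gene body). Slc39a14 at +28.2 kb is called in the DHT columns alone, Slc39a10 at +155.9 kb in the EtOH columns alone, and Slc39a6 at +14.5 kb and Slc30a1 at +18.0 kb in the SPOPmut columns alone.

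Of the ZnT genes, Slc30a1 held more regions in SPOPmut in both treatments, Slc30a4 did so without overlap in DHT, and Slc30a10 held none. Slc30a1 (chr1:191906697-191913248, plus strand) encodes ZnT1, the main zinc exporter of the plasma membrane and a known target of Mtf1. It had 2, 3, 2 and 2 called regions in Control EtOH, 2 in each library of Control DHT, and 4 in each of the 8 SPOPmut libraries. The regions at its start (chr1:191905933-191907937) and 12.1 kb upstream of the body were called in all 16. The added regions lay downstream. The first, chr1:191924374-191925053, 11.5 kb beyond the gene, was called in 0 of 8 Control and 8 of 8 SPOPmut libraries, at -log10 p values of 4.50, 4.12, 4.48 and 3.72 with EtOH and 4.00, 3.52, 3.98 and 4.40 with DHT. The second, chr1:191927263-191928648, 14.7 kb beyond it, was called in 1 of 8 Control libraries, at 3.51, and in 8 of 8 SPOPmut libraries, at 3.20 to 4.53. The genotype difference at Slc30a1 was 0 in both treatments when only peaks above the median -log10 p of their list were counted, and also 0 when regions overlapping the body and 10 kb either side were counted. At equal list length it was 1.75 in EtOH and 1.25 in DHT, in place of 1.75 and 2, and the groups did not overlap.

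Slc30a4 (chr2:122681233-122702663, minus strand) encodes ZnT4, which loads zinc into vesicles and is defective in the lethal milk mouse. Its libraries had 6, 6, 8 and 8 called regions in Control EtOH, 5 in each library of Control DHT, 9, 7, 8 and 9 in SPOPmut EtOH and 8 in each of SPOPmut DHT. Control DHT was the lowest group and overlapped with no other, whereas Control and SPOPmut overlapped in EtOH. Relative to the call rate of chromosome 2, the genotype difference was -0.16 regions in EtOH and 1.33 in DHT, in place of 1.25 and 3, and the groups again did not overlap in DHT. The region over its start, chr2:122701587-122702956, which includes the sequence printed above, was called in 3 of 4 libraries of Control EtOH at -log10 p values of 3.33, 3.10 and 3.12, near the bottom of the lists at a median percentile of 0.513. It was called in 0 of 4 of Control DHT. In SPOPmut it was called in all 8 libraries, at 4.83, 4.19, 4.65 and 3.63 with EtOH and 4.18, 4.50, 4.25 and 4.99 with DHT, at median percentiles of 34.7 and 35.6 within those lists. The region chr2:122704604-122704982, 2.13 kb upstream, had the same numbers of calls (3, 0, 4 and 4), with values of 3.68 to 4.00 (Control) and 3.67 to 5.13 (SPOPmut). The region chr2:122707622-122708490, 5.39 kb upstream, was called only in SPOPmut DHT, in 4 of 4 libraries at 3.52 to 4.22. Of its 10 regions, 5 were called in all 16. Slc30a10 (chr1:185454848-185468762), which encodes a transporter known mainly for manganese export, had no region in any library, so it gave no value.

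**Figure D5:**
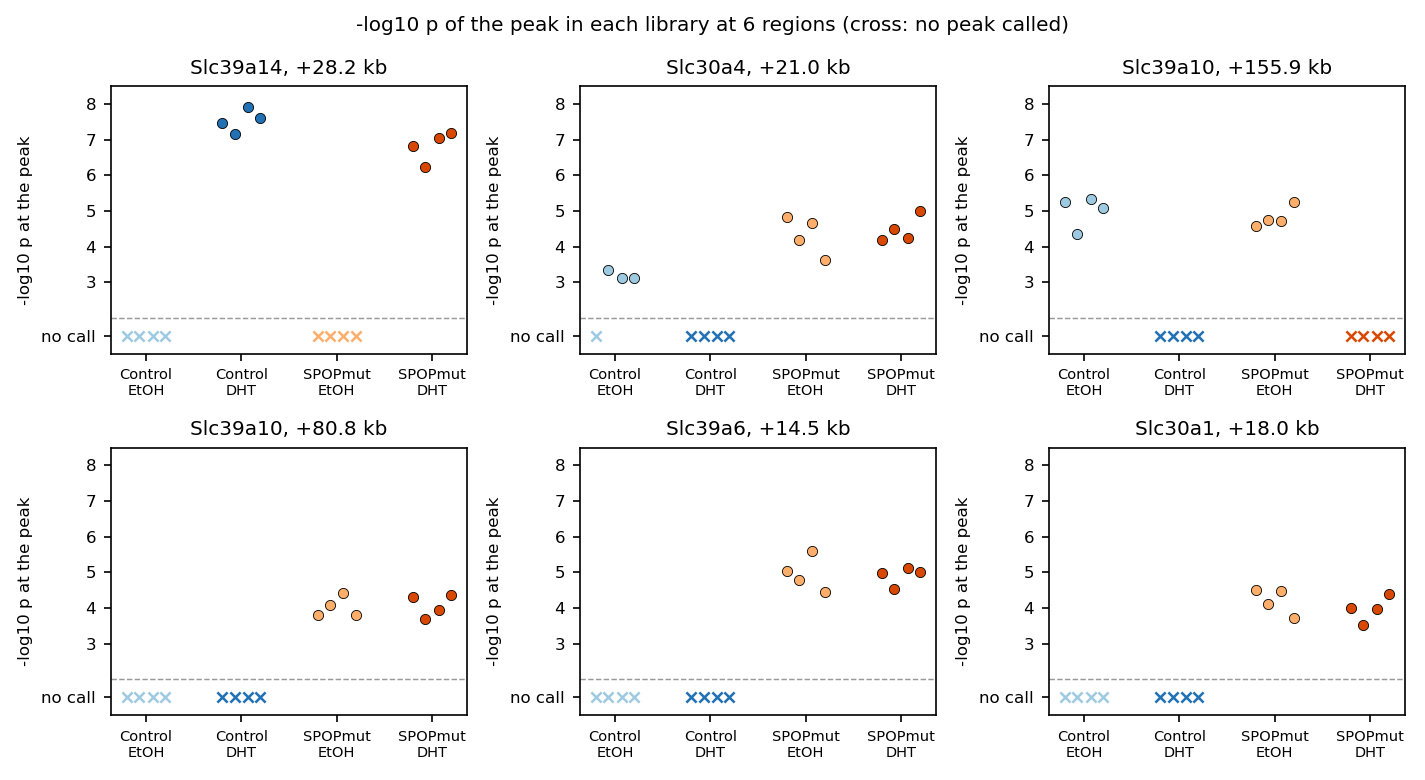
The -log10 p at the peak (vertical axis) in each library, by group (horizontal axis), at 6 regions named by gene and distance in kb from the lower-coordinate end of the gene body; crosses below the dashed line are libraries with no peak. Slc39a14 at +28.2 kb reaches 6.23 to 7.91 in DHT and has no call in EtOH, and Slc30a4 at +21.0 kb, its start, lies at 3.10 to 3.33 in Control EtOH and 3.63 to 4.99 in SPOPmut.

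Over all members, 27 of the 82 regions separated at least 1 pair of groups completely (20.6% of all 80352 regions did). By genotype in EtOH, 5 were gained (Slc39a10 3, Slc39a6 1, Slc30a1 1), where 4.84% of all regions were, and 9 were lost, where 4.36% were. By genotype in DHT, 9 were gained (Slc30a4 3, Slc30a1 2, and 1 each at Slc39a6, Slc39a8, Slc39a10 and Slc39a11), where 6.41% of all were, and 10 were lost, where 4.22% were. Every region lost by genotype belonged to Slc39a11, and gains fell on 6 genes. Slc39a11 held 44 of the 82 regions and was selected with its fall known, so nothing is read from where the losses lay. With DHT, 1 member region was gained and 1 lost in Control (2.93% and 1.96% of all regions), and 2 were gained and 6 lost in SPOPmut (4.70% and 1.98%). The 6 made up 7.32% of the member regions. The member regions were called in all 16 libraries in 43.9% of cases, against 48.9% of all regions, and their median width was 803.5 bp against 667 bp.

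Other genes of zinc handling were tested to place the members in their pathway. The list held 22 genes, among them the remaining ZIP and ZnT transporters, the metallothioneins Mt1 to Mt4, which bind zinc in the cytosol, the zinc-sensing factor Mtf1, the zinc exporter Tmem163 and the zinc receptor Gpr39. It was drawn up with earlier results of these data known, so the p-values below describe these data and are no independent support. Of the 22, 14 had at least 2 regions. Slc39a5, Slc39a7, Slc39a12, Slc30a2 and Slc30a8 had no region assigned to them and 3 had 1. The start of Slc39a7 is nevertheless covered by chr17:34030884-34032805, which was assigned to Rxrb and was called in 4 of 4 libraries of every group. By genotype over all 16 libraries, 1 of the 14 was higher in SPOPmut (19.4% of all genes tested) and 5 were lower (12.1%), at an adjusted p under 0.05 in an exact permutation test within treatments, two-sided, corrected over all 11210 genes. The median difference was -0.19 regions, against 0 over all genes. The vesicle transporter gene Slc30a3 fell from a mean of 2.625 called regions in Control to 0.625 in SPOPmut (exact permutation adjusted p = 0.00325), with 2 or 3 in each Control and 0 or 1 in each SPOPmut library. Mt1 fell from 5.375 to 4 (exact permutation adjusted p = 0.00325), with 5 or 6 regions in each Control library and 4 in each SPOPmut library. Its neighbours Mt3 and Mt4 fell by 0.875 and 1 region (exact permutation adjusted p = 0.0102 and 0.0371), and Mt2, in the same cluster, differed by 0.25 and did not pass. Slc30a6, a partner of ZnT5 in the secretory pathway, fell by 0.75 (exact permutation adjusted p = 0.0237). The metallothionein calls depended on how regions were counted. The call at Mt1 ended when every region overlapping the gene body widened by 10 kb was counted (-0.25, adjusted p = 0.720, exact permutation). That at Mt3 ended when peaks were counted in place of regions (-0.125, adjusted p = 1, exact permutation). Those at Mt1 and Mt4 ended among peaks above the median of their list (-0.5 and -0.875, adjusted p = 0.0756 for each, exact permutation). When labels were exchanged only between libraries of the same replicate number, the genotype calls at Slc30a6, Mt3 and Mt4 ended. Their adjusted p-values were then 0.0972, 0.0633 and 0.0972 (exact permutation within replicate numbers). With DHT, 1 of the 14 was higher (5.41% of all genes) and 0 were lower (3.14%; 1 of the 14, Slc39a3, was lower at an unadjusted p under 0.05). Mt4 rose from a mean of 2.5 regions with EtOH to 5.5 with DHT (exact permutation adjusted p = 0.0119), with 6 in each Control and 5 in each SPOPmut library with DHT and 1 to 4 in those with EtOH. The median difference of the list with DHT was -0.0625 regions, against 0 over all genes.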

How the data were processed

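The members and the gene lists were chosen with earlier results of these data known. Per the submitters' processing notes, Bowtie2 2.3.4.1, SAMtools 1.8 and Genrich (version not given in the sources used here) were used with mouse build mm10. The peak lists were deposited per library, with replicates not pooled. The authors deposited for each peak a whole-number score with an upper limit of 1000, a signal value that was above 200 in every list, and a -log10 p of 2.63 to 25.2. Of these only the deposited -log10 p was used, for ranking and for filters inside a list; the score and signal were not. Lists hold no read counts, so depth is unknown and no counting intervals can be given. Signal tracks pooled over replicates were not used here.

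Overlapping peaks (1 bp or more) were joined into 86616 regions. The 6264 called in 1 library were set aside, and 73220 of the remaining 80352 were assigned, by their midpoint, to the nearest protein-coding gene body of RefSeq GRCm38.p6 within 100 kb; where several bodies covered a midpoint, the shortest gene was taken. Called regions were summed per gene and library, and the 11210 genes holding 2 or more entered the tests. Zinc handling genes outside the members were tested by a two-sided exact permutation test, with labels exchanged inside each level of the other factor (4900 arrangements; the smallest p they can give is 0.000408), with Benjamini-Hochberg correction over all genes at 0.05. Each p-value is the share of label exchanges that gave a difference at least as large in size as the observed one. It concerns these libraries alone. Replicates may be technical, so it does not speak to variation between cultures or animals. The test was checked on simulated data. Genes named are all members, every listed gene that passed or had no region (1 of these is counted but not reported here), the 5 genes nearest to Slc39a11, and each region called in 4 of 4 libraries of one group and 0 of 4 of the other, or for a gene with over 12 of them the 6 widest per direction. Python 3.11.15, NumPy 2.4.6, pandas 2.3.3, SciPy 1.17.1 and Matplotlib 3.10.9 were used. Alternatives changed the regions kept, the assignment, list length, peak strength, overlap, counting and scaling, left out each library, or used the replicate number as a block.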

Additional observations from a re-analysis of the deposited data

Results flagged for a closer look

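In 4 groups of 4 libraries, the count of 1 library stood apart from the other 3 further than expected of 4 values. Replicate 2 of SPOPmut EtOH had 25 called regions at Slc39a11, where the other 3 had 28. Replicate 3 of SPOPmut DHT had 2 at Slc39a8, where the others had 1. Replicate 2 of Control DHT had 4 at Slc39a14, where the others had 5, and replicate 2 of Control EtOH had 3 at Slc30a1, where the others had 2. Chance marks about 1 in 20 groups in this way, and 3 tied values make any difference of 1 region stand apart. Replicate 2 had the shortest peak list in every group: 57245, 58038, 60661 and 58800 peaks in Control EtOH, Control DHT, SPOPmut EtOH and SPOPmut DHT. In every group it also had the fewest regions at Slc39a11 (33, 32, 25 and 21), whereas at Slc30a1 its flagged count was the higher one. The part of list length in these counts was not tested.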

How the results depend on the processing

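The genotype difference at Slc39a11 was negative under every alternative, and Control and SPOPmut overlapped only when peaks were limited to those above the median -log10 p of their list. It moved from -10.5 in EtOH to -7.25 at equal list length and -3.25 above the median. In DHT it moved from -11.75 to -8.5 within 25 kb, to -8.5 for the body and 10 kb either side, and to -2.5 above the median. Leaving out each library gave -12.1 to -9.08 in EtOH and -12.9 to -10.8 in DHT. Above the median, Slc39a10 by genotype in EtOH reversed from 3 to -0.5 and Slc30a6 from -0.75 to 0.375. Among the other alternatives for the members, 594 values stayed within 1 SD of the reported one and 85 moved further. The 594 include all 17 alternatives in each comparison at Slc30a10, which has no region and could not move. They also include most of those at Slc39a1 and Slc39a2, with 1 region called everywhere. The count is therefore no measure of stability at the genes with variable calls. Of listed genes by genotype, 1 higher call became 2 for the body and 10 kb either side, 0 at equal list length, 0 when peaks replaced regions, 2 as a share of the library and 3 relative to the chromosome. Leaving out each library gave 1 to 3: Tmem163 (adjusted p 0.0550 with all libraries, exact permutation) passed without replicate 3 of Control EtOH, 4 of Control DHT, 2 of SPOPmut EtOH or 1, 2 or 3 of SPOPmut DHT, and Slc39a13 without replicate 2 of the last. Above the median, where 8 of the 14 genes could be tested, 1 gene was called lower in place of 5, and it was not among those 5. There Slc30a6 reversed, Mt1 and Mt4 did not pass, and Slc30a3 and Mt3 could not be tested. With DHT, 1 higher call became 2 for the body and 10 kb either side. The 0 lower calls with DHT became 1 as a share of the library and 1 relative to the chromosome. The causes were not tested. With the replicate block, 2 lower calls by genotype were left and 0 higher calls with DHT. The block allows 256 arrangements, and the smallest p they can give is 0.00781. Mt4 rose with DHT in every same-numbered pair, which gives that p, and its adjusted p was 0.149 (exact permutation within blocks). No gene could therefore pass by DHT with the block, and nothing is read from the 0. Same-numbered libraries had correlations of -0.266 to 0.391, over 0.1 in 12 of 24 pairs. These 12 were every pair of replicates 2 and 3 and none of replicates 1 and 4. Of 16 libraries, 5 correlated best with their own number in every other group. The numbers were not taken as pairs in the main test, and what replicates 2 and 3 share was not tested. Unknown depth limits every statement on a missing call.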
